A study of Mus musculus with 5 samples.

Results

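Solute carriers are membrane proteins that move sugars, amino acids, metals, nucleosides and other small molecules across cell and organelle membranes. Their genes carry a family number and a member number, as in Slc2a1. The genes described here were selected on their measured level: they are the rows of the deposited table whose symbol has this form and whose value reached at least 1 RPKM (reads scaled to exon length and library size) in at least 2 of the 5 libraries. Of 332 rows with such a symbol, 3 (Slc11a1, Slc11a2 and Slc40a1) were left out by name, 182 lay under that level and 147 were kept. They belong to 10166 genes that passed the same level among 34240 rows. The level chose the rows without regard to group, but 7 were kept through the AML libraries alone and 15 through the normal libraries alone, and such a gene had to differ between the groups. The nearest values inside the level were a second-highest library of 1.0 RPKM for Slc12a4 and 1.01 RPKM for Slc19a1, and the nearest outside were 0.99 RPKM for Slc25a42 and 0.96 RPKM for Slc25a33.

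The study set leukaemic against normal mouse myeloid cells. AML (acute myeloid leukaemia) was driven by CNTRL-FGFR1, in which a centriole protein is joined to the kinase receptor FGFR1, and its 2 libraries hold cells positive for Mac, Gr1 and B220 that were taken from marrow and spleen. The other 3 libraries hold normal Gr1+Mac1+ cells of the marrow. All mice were BALB/c and 10 to 12 months old, per the labels, which name no other treatment. Tissue and the B220 sort differed with the group and cannot be told apart from it, and no label tells if each library is a mouse of its own, so the p-values reflect a spread that can be technical.

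Genes that define myeloid cells were present in both groups: 12 of 12 neutrophil genes (such as S100a8, S100a9, Mpo and Ltf) were tested and summed to 182067 and 249445 RPKM in the AML libraries and to between 190188 and 297521 RPKM in the normal libraries. Mpo, Elane and Prtn3, genes of early granules, were higher in AML cells (17.8-fold, 62.2-fold and 17.9-fold), and Itgam, Ly6g, Ltf and Csf3r were lower. Of 12 B cell genes only 4 reached the level that was tested, with sums of 12.0 and 14.97 RPKM in AML and 14.5 to 23.3 RPKM in normal libraries. T and NK cell genes summed to 635 and 591 RPKM in AML against 59.0 to 65.8 RPKM in normal libraries, mostly through Cd3e, Cd3g and Nkg7. Of 12 such genes 8 were tested, of which 7 were higher (those 3 with Gzma, Thy1, Tcf7 and Lat) and Cd3d was lower, while Cd2, Lck, Cd8a and Cd4 stayed under 1 RPKM in every library. Normal library 3 stood apart from the other normal libraries. Eosinophil and basophil genes summed to 116 and 237 RPKM in AML libraries and to 675, 690.1 and 13.8 RPKM in normal libraries 1 to 3. Erythroid genes summed to 170 and 186 RPKM in AML libraries and to 2233, 1464 and 174 RPKM in normal libraries 1 to 3. Monocyte and macrophage genes summed to 81.8 and 95.6 RPKM in AML libraries against 893 to 1172 RPKM in normal libraries, and 10 of 14 were lower in AML cells. The part of these cell types in the results on carriers was not tested, and in bulk samples fewer cells of a type and less RNA per cell cannot be told apart.

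Sugar carriers bring glucose into the cell and move its phosphate within it. Amino acid carriers work alone or as a heavy and a light chain, and several exchange one amino acid for another. The Slc25 family sits mostly in the inner mitochondrial membrane, where it passes nucleotides, phosphate, metals and metabolites. Zinc enters the cytosol through the Slc39 (ZIP) family and leaves it through the Slc30 (ZnT) family. In neutrophils, glycolysis supplies most of the energy, and glucose-6-phosphate transport into the endoplasmic reticulum is needed for normal granulocyte number and function in mice and humans.

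Of the 147 rows, 31 were called higher and 26 called lower in AML than in normal libraries (limma, Benjamini-Hochberg adjusted p under 0.05), and 90 were not called. Among all 10166 tested genes 31.0% were called, 19.3% higher and 11.8% lower. The carriers' shares, 21.1% higher and 17.7% lower, are a description beside that background. The groups did not overlap in the 57 called rows, nor in 36 rows that were not called, and 57.0% of all tested genes did not overlap either. Both AML libraries lay above every normal library in 52 rows and below in 41, against 34.8% and 22.1% of all tested genes. The median log2 fold change of log2(RPKM + 1) was 0.09 over the carriers and 0.12 over all tested genes, so neither direction prevailed over the whole family. 6 of the 31 higher genes had been kept through the AML libraries alone and 7 of the 26 lower ones through the normal libraries alone. 4 of the 147 rows encode no carrier although their symbols match, namely the scaffold genes Slc9a3r1 and Slc9a3r2, the adaptor gene Slc4a1ap and Slc7a6os, and none of the 4 was called by limma, 0 of them at an unadjusted p under 0.05. Slc26a6 stands in 2 rows with different positions on chromosome 9 (108756373 to 108764474 and 108814740 to 108815380, mm9), of which only the first overlaps the gene annotated under that symbol. These counts rested on single libraries, as did those of all tested genes. Without normal library 1, 2 or 3, 28.5%, 19.1% and 57.5% of the carrier rows tested were called. Over all tested genes the shares were 19.5%, 16.1% and 48.5%. Both shares also fell when either AML library was left out. Without AML library 2 there were 6 higher and 3 lower carriers, without AML library 1 there were 10 and 8, without normal library 2 there were 15 and 11, without normal library 1 there were 20 and 19, and without normal library 3 there were 44 and 40.

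**Figure D1:**
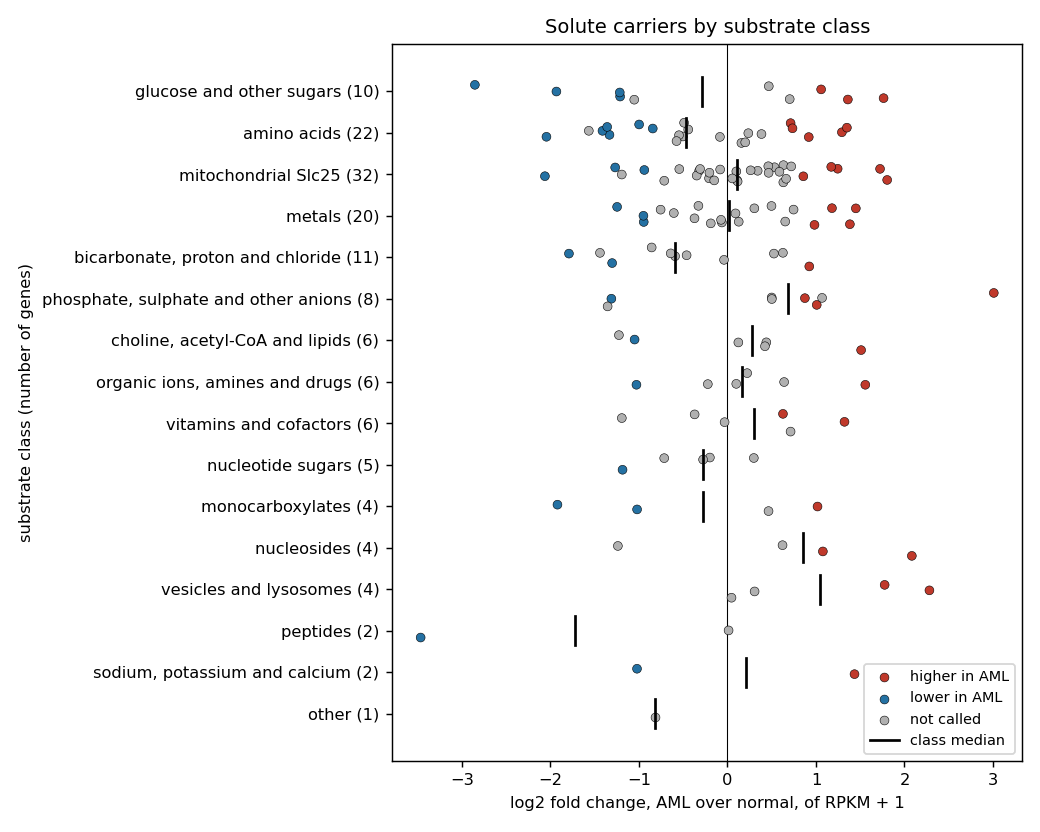
Log2 fold change of RPKM + 1 (AML over normal, x axis) of each carrier, with substrate classes as rows and the number of genes in brackets. Points are genes, coloured by call (limma adjusted p under 0.05), and black bars are class medians. The rows for sugars, amino acids, Slc25 and metals each hold both higher and lower genes, and the extremes are Slc26a8 at 3.01 and Slc15a3 at -3.47.

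Among the 10 carriers of glucose and other sugars, the glucose carrier genes Slc2a3 and Slc2a6 fell while carriers of sugar phosphate moved both ways. Over all tested genes 19.3% were called higher and 11.8% lower. Of the 10 sugar carriers, 3 were higher, 4 lower and 3 not called (median log2 fold change -0.29, against 0.12 over all genes). Slc2a3, which encodes GLUT3 (chromosome 6, 122677827 to 122751658, mm9), was the most abundant of them, at 53.4 and 46.4 RPKM in AML libraries and 108, 102 and 144 RPKM in normal libraries. Both AML values lay under every normal value, a 2.37-fold lower mean (log2 fold change -1.21, SE 0.26, limma adjusted p = 0.013). Slc2a6, which encodes the lysosomal GLUT6, had 1.8 and 2.0 RPKM in AML libraries and 16.1, 19.3 and 25.5 RPKM in normal libraries. It was 10.7-fold lower and the largest fall of the class (log2 fold change -2.85, SE 0.26, adjusted p = 0.00063). Slc2a1, which encodes GLUT1, the widespread glucose carrier, had 3.42 and 2.27 RPKM in AML libraries and 4.81, 6.19 and 10.8 RPKM in normal libraries. Its groups did not overlap, but it was not called (log2 fold change -1.05, SE 0.34, adjusted p = 0.056). With a pseudocount of 0.1, with upper quartile scaling, or without normal library 1 or normal library 3, Slc2a1 was called lower. In every other fit Slc2a1 was not called, and it was named after its values were seen. Slc2a9, which encodes a urate carrier of the same family, rose 2.33-fold, with 9.95 and 7.09 RPKM in AML libraries and 4.39, 4.45 and 2.14 RPKM in normal libraries (adjusted p = 0.044). The GLUT family thus held 1 higher, 2 lower and 1 uncalled gene.

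Slc37a4 encodes the carrier that brings glucose-6-phosphate into the endoplasmic reticulum, where the phosphatase of G6pc3 splits it. Slc37a4 (chromosome 9, 44205182 to 44211046) had 16.6 and 19.5 RPKM in AML libraries and 3.66, 4.53 and 5.81 RPKM in normal libraries. The lowest AML value was above every normal value, a 3.87-fold rise (log2 fold change 1.76, SE 0.25, adjusted p = 0.0033). G6pc3 rose alongside it, with 16.8 and 21.6 RPKM in AML libraries and 4.44, 4.23 and 5.25 RPKM in normal libraries (4.13-fold, log2 fold change 1.83, SE 0.23, adjusted p = 0.002). Slc37a1, a related glucose-6-phosphate carrier of the endoplasmic reticulum, rose 2.80-fold, to 16.7 and 18.2 RPKM in AML libraries against 5.71, 5.57 and 7.44 RPKM in normal libraries. Slc37a2, which exchanges sugar phosphate in macrophages, fell to 1.3 and 1.2 RPKM in AML libraries against 5.3, 4.4 and 3.2 RPKM in normal libraries (adjusted p = 0.01). Slc37a3 fell 8.09-fold, to 0.5 and 1.0 RPKM in AML libraries against 4.2, 4.1 and 9.9 RPKM in normal libraries (adjusted p = 0.01). All 4 genes of this family were thus called, with Slc37a1 and Slc37a4 higher and Slc37a2 and Slc37a3 lower. The hexokinase genes, whose products trap glucose as its phosphate, were not called: Hk3 had 131 and 154 RPKM in AML libraries and 144, 133 and 199 RPKM in normal libraries, while Hk1 (adjusted p = 0.27) and Hk2 (adjusted p = 0.10) had log2 fold changes of 0.46 and -0.65. Txnip, which restrains glucose uptake, had 35.8 and 14.9 RPKM in AML libraries and 105, 86.1 and 39.2 RPKM in normal libraries, and missed the threshold (adjusted p = 0.057). Leaving out a library ended the calls of Slc2a3, Slc37a2 and Slc37a3 (either AML library, adjusted p up to 0.11, 0.087 and 0.075), Slc37a1 (AML library 2, 0.064) and Slc2a9 (each but normal library 3, up to 0.19). Slc2a6, Slc37a4 and G6pc3 kept theirs whichever library was left out, and Slc2a9 lost its own with upper quartile scaling and with no filter as well (up to 0.086).

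Of 22 amino acid carriers, 5 rose, 6 fell and 11 were not called (median log2 fold change -0.47, against 0.12 over all genes). For comparison, 19.3% of all tested genes were called higher and 11.8% lower. The normal libraries alone kept 4 of the 22, and the AML libraries alone kept 0. The level rule favoured a fall for those 4. Slc1a5, Slc38a1 and Slc38a2, which encode carriers of neutral amino acids including glutamine, were among those that rose. Slc1a5, which encodes ASCT2, an exchanger at the cell surface (chromosome 7, 17366695 to 17383623), had 16.4 and 14.4 RPKM in AML libraries and 5.39, 5.25 and 6.42 RPKM in normal libraries. It rose 2.70-fold (log2 fold change 1.29, SE 0.22, adjusted p = 0.0063). Slc38a1 and Slc38a2, which encode the sodium-coupled carriers SNAT1 and SNAT2, lie near each other on chromosome 15 (96401849 to 96473344 and 96517825 to 96530129). Slc38a1 had 19.3 and 13.02 RPKM in AML libraries and 6.54, 5.25 and 5.14 RPKM in normal libraries, a 2.86-fold rise (log2 fold change 1.35, SE 0.25, adjusted p = 0.009). Slc38a2, the most abundant amino acid carrier, had 83.1 and 85.5 RPKM in AML libraries and 40.5, 38.9 and 54.5 RPKM in normal libraries, a 1.89-fold rise (log2 fold change 0.92, SE 0.25, adjusted p = 0.031). For each of these 3 genes both AML libraries lay above every normal library, as in 34.8% of all tested genes. Slc7a6, a light chain that pairs with Slc3a2, rose to 2.66 and 2.98 RPKM in AML libraries against 1.35, 1.29 and 1.24 RPKM in normal libraries (2.18-fold, adjusted p = 0.023). Slc38a10 rose 1.68-fold (adjusted p = 0.043), a gene named here after its values were seen, and was not called with upper quartile scaling, quantile normalization or no filter (up to 0.067).

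The amino acid carriers that fell include those for cystine, taurine, aromatic and branched-chain amino acids. Slc7a11, which encodes xCT, the exchanger of cystine for glutamate that feeds glutathione synthesis, was listed at 0.1 RPKM in both AML libraries and at 2.6, 2.9 and 0.6 RPKM in normal libraries. Its log2 fold change was -1.36 (SE 0.39, adjusted p = 0.037), and normal library 3 lay nearest to the AML libraries. It was kept through the normal libraries alone, so its direction was set by the level rule. Slc43a2, which encodes the uniporter LAT4 of branched-chain amino acids and phenylalanine, had 1.0 and 0.5 RPKM in AML libraries and 10.8, 7.6 and 2.6 RPKM in normal libraries (log2 fold change -2.05, SE 0.49, adjusted p = 0.02). Slc6a6, the taurine carrier, fell 2.69-fold, to 16.5 and 8.7 RPKM in AML libraries against 39.4, 33.5 and 28.9 RPKM in normal libraries (adjusted p = 0.016). Slc16a10, a carrier of aromatic amino acids, fell 3.43-fold, to 1.9 and 1.4 RPKM in AML libraries against 6.4, 5.2 and 5.4 RPKM in normal libraries (adjusted p = 0.0055). The other falls were those of Slc6a13 and Slc38a7, a lysosomal carrier, which were named after their values were seen and had log2 fold changes of -0.998 and -0.84. The groups did not overlap in any of these 6 genes, as in all 57 called carriers and in 57.0% of all tested genes. Slc3a2, the heavy chain shared by Slc7a5, Slc7a6 and Slc7a11, had 24.7 and 26.5 RPKM in AML libraries and 18.3, 28.1 and 23.1 RPKM in normal libraries, with overlapping groups (log2 fold change 0.16, SE 0.25, adjusted p = 0.65). Slc7a5, which encodes LAT1, the main importer of large neutral amino acids in dividing cells, overlapped as well, with 5.05 and 3.32 RPKM in AML libraries and 3.73, 3.00 and 3.65 RPKM in normal libraries (log2 fold change 0.20, SE 0.24, adjusted p = 0.54). Slc7a5 and Slc3a2 were named after their values were seen.

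The partner genes of amino acid supply, listed for their function, moved in the same experiment as follows. Asns, asparagine synthetase, had 0.6 and 0.3 RPKM in AML libraries and 12.9, 15.9 and 16.9 RPKM in normal libraries, so every AML value lay far under every normal value (33.9-fold lower mean, log2 fold change -3.48, SE 0.23, adjusted p = 0.00031). Sesn2, a stress-induced inhibitor of the growth kinase complex mTORC1 that senses leucine, fell 6.63-fold (log2 fold change -1.85, SE 0.27, adjusted p = 0.0039). Among known targets of ATF4, the transcription factor of the amino acid response, Asns, Sesn2 and Slc7a11 fell and Slc38a2 rose. The direction of Slc7a11 was set by the level rule, as given above. Ddit3, Slc3a2 and Slc7a5 were not called, with log2 fold changes of 0.42, 0.16 and 0.20, while Trib3 lay under the level tested. Atf4 itself had 163 and 230.2 RPKM in AML libraries and 73.2, 133 and 198 RPKM in normal libraries, with overlapping groups (adjusted p = 0.30). The glutathione synthesis genes Gclc and Gclm were not called (adjusted p = 0.73 and 0.94). The promoter of Slc7a11 is shown because it holds 2 copies of the amino acid response element, the site through which ATF4 acts. The sequence is from RefSeq (GRCm38.p6, chr3:50443564-50443863, minus strand), with 250 bases before and 50 after the start, and capitals mark TGATGCAA or its reverse complement TTGCATCA, which do not overlap.
Slc7a11: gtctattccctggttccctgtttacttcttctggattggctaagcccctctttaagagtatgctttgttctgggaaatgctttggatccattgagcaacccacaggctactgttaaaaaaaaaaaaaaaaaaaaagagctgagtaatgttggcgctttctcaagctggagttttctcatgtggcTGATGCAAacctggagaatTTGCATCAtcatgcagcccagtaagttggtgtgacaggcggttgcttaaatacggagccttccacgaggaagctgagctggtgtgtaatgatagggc
The matches begin at -66 and -47, counted from the first transcribed base as 0. This motif, searched on both strands, was in 0.7% of the promoters of 8151 tested genes, in 1 of 18 promoters of carriers that fell (Slc7a11), in 0 of 23 of carriers that rose and in 1 of 68 of carriers not called. A match is a stretch of letters and not a measured binding site.
Single libraries decided many calls of amino acid carriers. Without AML library 2 only Slc38a1 kept a higher call and none of the 22 a lower one (limma, 5 lower at an unadjusted p under 0.05). Calls were lost without either AML library for Slc7a11 (adjusted p up to 0.19, and under the level tested without normal library 1 or 2), without each library but normal library 3 for Slc38a2, Slc38a10, Slc38a7 and Slc7a6 (up to 0.16, 0.20, 0.16 and 0.17), without either AML library or normal library 2 for Slc43a2 and Slc6a13 (up to 0.15 and 0.093), without normal library 2 or AML library 2 for Slc6a6 (0.11), without AML library 2 for Slc1a5 (0.0502), Slc16a10 (0.063) and Sesn2 (0.054), and without AML library 1 for Slc38a1 (0.064).

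**Figure D2:**
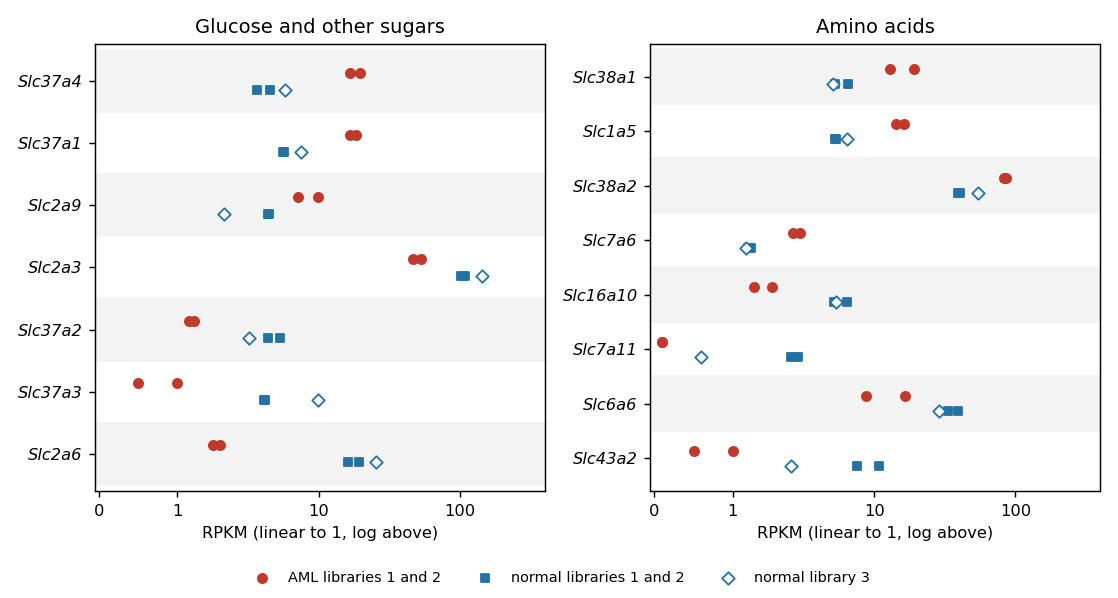
RPKM in each library (x axis, linear up to 1 and logarithmic above) of the sugar carriers (left) and amino acid carriers (right) that were called with the largest changes, ordered by log2 fold change. Red circles are AML libraries, blue squares normal libraries 1 and 2 and open diamonds normal library 3. The circles of Slc37a4 stand at 16.6 and 19.5 RPKM, to the right of every normal library, and those of Slc2a6 at 1.8 and 2.0 RPKM, to the left of them.

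Of 32 members of the Slc25 family, 24 were not called, 5 rose and 3 fell (median log2 fold change 0.11, against 0.12 over all genes). The shares, 15.6% higher and 9.4% lower, lay under those of all tested genes, 19.3% and 11.8%. The summed level of the family was 587 and 607 RPKM in AML libraries and 499, 539 and 548 RPKM in normal libraries. Both AML sums were thus above every normal sum, by little. The adenine nucleotide translocases, which exchange ATP for ADP across the inner membrane, did not move alike. Slc25a4, which encodes ANT1 (chromosome 8, 47292151 to 47296638), had 2.4 and 2.2 RPKM in AML libraries and 9.9, 13.2 and 15.9 RPKM in normal libraries. It fell 5.65-fold, and no AML library came near a normal one (log2 fold change -2.06, SE 0.26, adjusted p = 0.002). Slc25a5, which encodes ANT2 and was named after its values were seen, had 72.2 and 54.2 RPKM in AML libraries and 75.1, 85.9 and 58.3 RPKM in normal libraries, with overlapping groups (log2 fold change -0.20, SE 0.27, adjusted p = 0.59). Slc25a5 has processed copies elsewhere in the genome, so its value can hold or lack reads of those. Slc25a3, which carries phosphate for ATP synthesis and also copper, had the highest mean of the family, at 97.5 and 121 RPKM in AML libraries and 49.8, 58.6 and 72.2 RPKM in normal libraries. It rose 1.82-fold (log2 fold change 0.86, SE 0.26, adjusted p = 0.046).

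The other rises of the family were those of Slc25a17, Slc25a26, Slc25a29 and Slc25a47. Slc25a17, which serves peroxisomes and not mitochondria by carrying coenzyme A and related nucleotides, had 47.3 and 52.2 RPKM in AML libraries and 13.1, 12.6 and 14.95 RPKM in normal libraries. Its 3.67-fold rise was the largest of the family on the log2 scale (log2 fold change 1.80, SE 0.22, adjusted p = 0.0017). Slc25a26, which imports S-adenosylmethionine, the methyl donor, into mitochondria, had 3.04 and 2.86 RPKM in AML libraries and 0.69, 0.72 and 0.59 RPKM in normal libraries (adjusted p = 0.0032). It was kept through the AML libraries alone. Slc25a29, a carrier of basic amino acids, and Slc25a47, a carrier known from liver, lie near each other on chromosome 12 (110064083 to 110074093 and 110089339 to 110095024). Slc25a29 had 4.22 and 3.83 RPKM in AML libraries and 1.13, 1.47 and 1.10 RPKM in normal libraries (3.26-fold higher, adjusted p = 0.006), and Slc25a47 had 3.13 and 5.09 RPKM in AML libraries and 0.21, 0.35 and 1.14 RPKM in normal libraries (7.25-fold higher, adjusted p = 0.0077). Slc25a24, a calcium-regulated carrier of ATP-magnesium and phosphate, fell 2.48-fold, to 35.1 and 26.9 RPKM in AML libraries against 82.9, 89.9 and 57.6 RPKM in normal libraries (adjusted p = 0.016). Slc25a35 was at 0.1 RPKM in both AML libraries and at 1.4, 1.3 and 0.7 RPKM in normal libraries (adjusted p = 0.016). It was kept through the normal libraries alone, and 31.3% of its exon length overlaps Rangrf on the other strand, whose reads cannot be told apart without strand. Ucp2, an Slc25-type carrier of leukocytes whose symbol lies outside the rule, fell 1.81-fold, to 124 and 132 RPKM in AML libraries against 229, 204 and 260 RPKM in normal libraries (adjusted p = 0.037). The subunits of the mitochondrial pyruvate carrier, listed as Brp44l and Brp44, were not called (log2 fold changes 0.41 and 0.46, adjusted p = 0.18 and 0.31).

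Mitoferrin-1 (Slc25a37), which brings iron to mitochondria for haem, and Slc25a38, which brings glycine for the same pathway, are typical of erythroid cells, as is the anion exchanger band 3 of Slc4a1. Slc4a1 had 2.2 and 2.1 RPKM in AML libraries and 30.4, 10.7 and 0.7 RPKM in normal libraries, and the normal libraries ranked as their summed erythroid genes did (2233, 1464 and 174 RPKM). Its groups overlapped because of normal library 3, and it was not called (log2 fold change -1.44, SE 1.07, adjusted p = 0.33). Slc25a37 had 54.0 and 55.0 RPKM in AML libraries and 30.7, 27.8 and 40.8 RPKM in normal libraries, and Slc25a38 had 14 and 28.8 RPKM in AML libraries and 9.48, 9.96 and 19.7 RPKM in normal libraries. Neither was called (adjusted p = 0.068 and 0.26), and both were higher in normal library 3 than in the other normal libraries, in contrast to Slc4a1. Of 9 tested erythroid genes 0 were called by limma and 2 had an unadjusted p under 0.05. Among Slc25 genes, leaving out a library ended the calls of Slc25a3 and Slc25a24 (each but normal library 3, adjusted p up to 0.25 and 0.13), Slc25a29 and Slc25a35 (either AML library, 0.056 and 0.13, the second of them under the level tested without normal library 1 or 2) and Slc25a47 (AML library 2, 0.087). Slc25a3 was also not called with upper quartile scaling, quantile normalization or no filter (up to 0.075). Slc25a4 and Slc25a17 kept their calls whichever library was left out. The call of Ucp2 was lost without each library but normal library 3 (up to 0.14). Without normal library 3, Slc4a1, Slc25a37 and Slc25a38 were called and 9 Slc25 genes were higher.

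**Figure D3:**
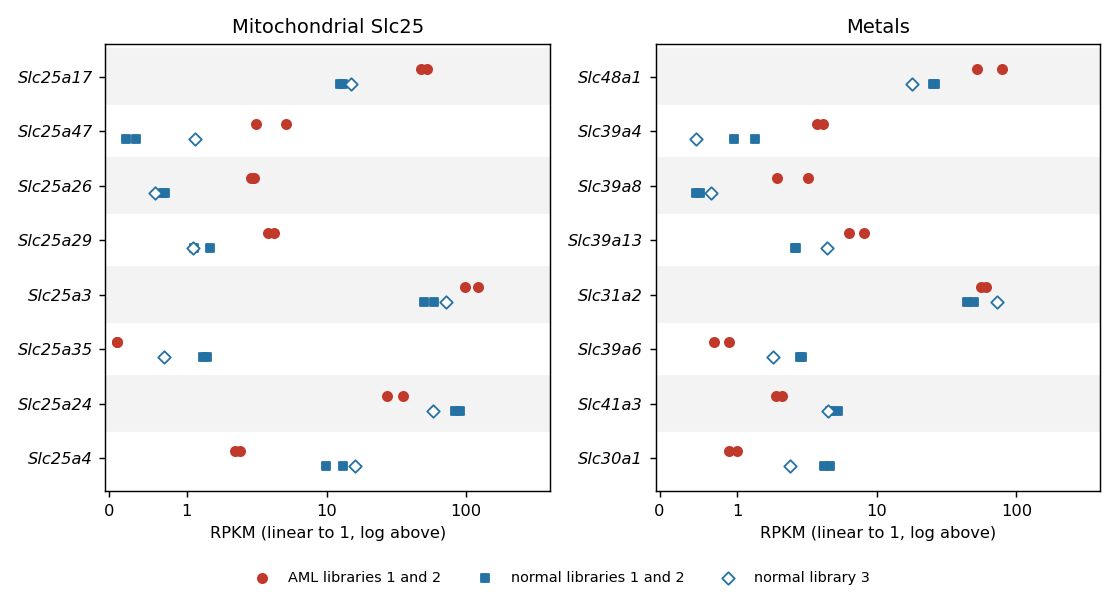
RPKM in each library (x axis, linear up to 1 and logarithmic above) of called Slc25 genes (left) and metal carriers (right) with the largest changes, with the most abundant gene of each class. Red circles are AML libraries, blue squares normal libraries 1 and 2 and open diamonds normal library 3. Slc31a2 is the gene in which the symbols of both groups overlap.

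Among 20 metal carriers, 4 rose, 3 fell and 13 were not called (median log2 fold change 0.01). For comparison, 19.3% of all tested genes were called higher and 11.8% lower. The ZIP family held 3 higher genes, 1 lower and 6 not called, and the zinc exporter of the cell surface was lower. Slc39a4, which encodes the zinc importer ZIP4 (chromosome 15, 76442815 to 76447322), had 3.74 and 4.14 RPKM in AML libraries and 0.96, 1.35 and 0.47 RPKM in normal libraries, a 4.25-fold rise (log2 fold change 1.38, SE 0.25, adjusted p = 0.0076). Slc39a8, which encodes ZIP8, a carrier of zinc and manganese, had 3.22 and 1.92 RPKM in AML libraries and 0.47, 0.52 and 0.66 RPKM in normal libraries (log2 fold change 1.18, SE 0.22, adjusted p = 0.0084). It was kept through the AML libraries alone. Slc39a13, which encodes ZIP13 of the secretory pathway, rose 2.25-fold, with 6.32 and 8.11 RPKM in AML libraries and 2.63, 2.60 and 4.39 RPKM in normal libraries (adjusted p = 0.033). Slc39a6, which encodes ZIP6, fell to 0.9 and 0.7 RPKM in AML libraries against 2.9, 2.8 and 1.8 RPKM in normal libraries (adjusted p = 0.02). It was kept through the normal libraries alone. The level rule thus set the directions of Slc39a8 and Slc39a6. Of 10 ZIP genes, 3 rose, 1 fell and 6 were not called. Slc30a1, which encodes ZnT1, the zinc exporter of the plasma membrane (chromosome 1, 193730646 to 193737126), had 1.0 and 0.9 RPKM in AML libraries and 4.6, 4.2 and 2.4 RPKM in normal libraries. It fell 3.93-fold (log2 fold change -1.25, SE 0.27, adjusted p = 0.014). The other 4 members of its family, Slc30a5, Slc30a6, Slc30a7 and Slc30a9, named after their values were seen, were not called.

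The metallothioneins, small proteins that bind zinc and copper and whose genes respond to zinc through the factor MTF1, rose as well. Mt1 had 168 and 247 RPKM in AML libraries and 4.49, 9.11 and 27.8 RPKM in normal libraries, a 15.1-fold rise (log2 fold change 4.13, SE 0.64, adjusted p = 0.0048). Mt2 had 9.84 and 17.7 RPKM in AML libraries and 0.00, 0.19 and 2.00 RPKM in normal libraries (log2 fold change 3.22, SE 0.50, adjusted p = 0.0047). The lowest AML value of each was several times the highest normal value, which was that of normal library 3. Mtf1 was not called, with 6.73 and 5.59 RPKM in AML libraries and 6.31, 5.19 and 4.45 RPKM in normal libraries (adjusted p = 0.56). Slc30a1 is, like Mt1, a known target of MTF1, and in these libraries the genes moved in opposite directions. Their promoters are shown together for that reason, from RefSeq (GRCm38.p6, plus strand, chr1:191906531-191906830 and chr8:94178839-94179138), with capitals marking the core of the metal response element, TGCACNC or TGCGCNC, on either strand.
Slc30a1: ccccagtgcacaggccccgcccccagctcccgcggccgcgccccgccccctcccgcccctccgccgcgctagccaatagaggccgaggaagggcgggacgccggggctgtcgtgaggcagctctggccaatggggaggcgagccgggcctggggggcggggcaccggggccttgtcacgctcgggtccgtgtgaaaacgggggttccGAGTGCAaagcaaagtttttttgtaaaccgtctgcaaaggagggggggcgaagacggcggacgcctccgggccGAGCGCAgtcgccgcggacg
Mt1: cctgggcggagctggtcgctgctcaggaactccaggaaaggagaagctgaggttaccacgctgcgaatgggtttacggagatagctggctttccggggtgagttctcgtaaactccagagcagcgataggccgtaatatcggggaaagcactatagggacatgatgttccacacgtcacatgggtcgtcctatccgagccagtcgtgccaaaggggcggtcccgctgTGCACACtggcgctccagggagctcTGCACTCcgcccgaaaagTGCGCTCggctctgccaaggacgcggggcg
Slc30a1 held 2 matches, both on the strand opposite to the gene, and Mt1 held 3 on its own strand, with no overlap between matches. A motif this short is common: it was in 40.1% of the promoters of tested genes, in 10 of 23 carriers that rose and had a promoter in the table, and in 6 of 18 that fell. The E-box CACGTG, bound by MYC and related factors, was in 12.1% of the promoters of tested genes, 4 of 23 that rose, 4 of 18 that fell and 14 of 68 not called.

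The class also holds carriers of haem, copper and magnesium. Slc48a1, which encodes HRG1, the haem carrier of endosomes and lysosomes, had 79.1 and 51.8 RPKM in AML libraries and 26.1, 25.3 and 17.9 RPKM in normal libraries. It rose 2.83-fold and had the largest rise of the class on the log2 scale (log2 fold change 1.45, SE 0.29, adjusted p = 0.011). Slc31a2, related to the copper importer, had the highest mean of the class, with 60.4 and 55.6 RPKM in AML libraries and 44.2, 49.9 and 72.6 RPKM in normal libraries, with overlapping groups (log2 fold change 0.09, SE 0.28, adjusted p = 0.82), and its sign turned under other scalings. Slc31a1, the copper importer itself, was not called (log2 fold change -0.61, adjusted p = 0.11) and was named after its values were seen. Atp7a, the copper pump that exports copper, fell 5.52-fold, to 1.8 and 1.5 RPKM in AML libraries against 11.5, 9.2 and 6.6 RPKM in normal libraries (log2 fold change -1.90, SE 0.27, adjusted p = 0.0034). Slc41a3, a magnesium carrier, fell 2.40-fold, to 2.1 and 1.9 RPKM in AML libraries against 4.6, 5.3 and 4.5 RPKM in normal libraries (adjusted p = 0.014). Leaving out a library ended the calls of Slc39a13 and Slc39a6 (each but normal library 3, adjusted p up to 0.20 and 0.15), Slc30a1 and Slc41a3 (normal library 2 or either AML library, 0.11 and 0.10), Slc39a4 (either AML library, 0.08), Slc48a1 (AML library 1, 0.075), and Mt1 and Mt2 (AML library 2, both 0.062). With 1 AML library Slc39a8 lay under the level and had no test, and Atp7a kept its call whichever library was left out.

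**Figure D4:**
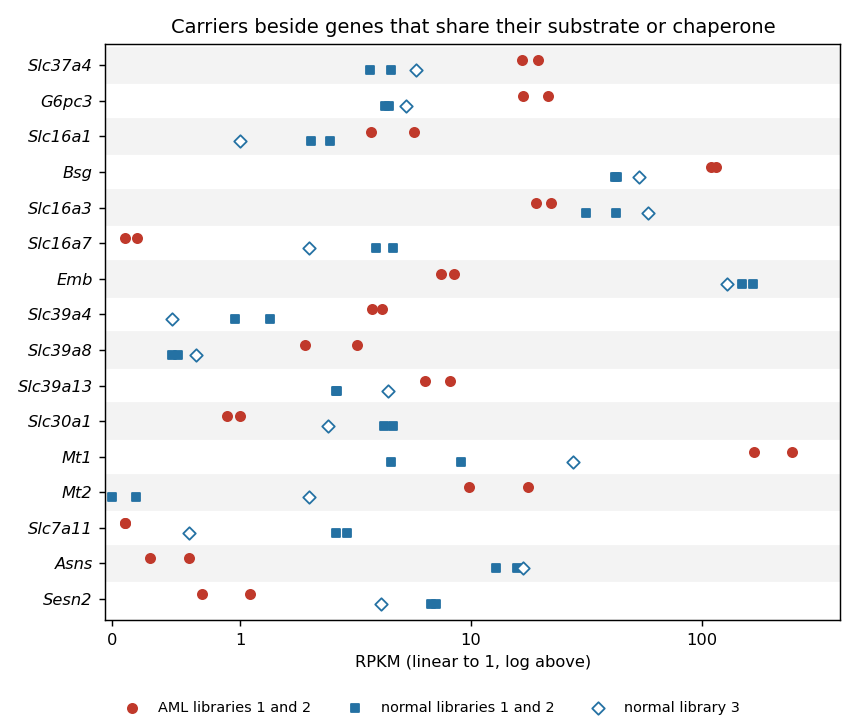
RPKM in each library (x axis, linear up to 1 and logarithmic above) of carriers beside genes that act on the same substrate or chaperone the carrier. Asns and Sesn2 stand beside Slc7a11 only as further known targets of ATF4. Red circles are AML libraries, blue squares normal libraries 1 and 2 and open diamonds normal library 3. Slc37a4 and G6pc3 share nearly the same values in both groups, and Emb and Asns show the widest gaps with AML on the left.

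Lactate and other monocarboxylates leave or enter cells through Slc16 carriers, which need the chaperones basigin (Bsg) or embigin (Emb) to reach the surface. Of 4 genes in this class 1 rose, 2 fell and 1 was not called. Over all tested genes 19.3% were called higher and 11.8% lower. Slc16a1, which encodes MCT1, rose 2.55-fold, with 5.65 and 3.69 RPKM in AML libraries and 2.45, 2.04 and 1.0 RPKM in normal libraries (log2 fold change 1.02, SE 0.30, adjusted p = 0.042). Slc16a3, which encodes MCT4, the lactate exporter of glycolytic cells, fell 2.14-fold, to 22.2 and 19.1 RPKM in AML libraries against 31.5, 42.6 and 58.4 RPKM in normal libraries (log2 fold change -1.02, SE 0.30, adjusted p = 0.042), and 15.6% of its exon length overlaps Csnk1d on the other strand. Slc16a7, which encodes MCT2, was at 0.1 and 0.2 RPKM in AML libraries and at 4.6, 3.9 and 2.0 RPKM in normal libraries (log2 fold change -1.92, SE 0.29, adjusted p = 0.0044). The MCT4 gene had the highest RPKM of these 3 in both groups. Slc16a6, the uncalled gene of the class, lay above it in AML libraries. It had 24.1 and 39.0 RPKM there and 14.6, 17.3 and 41.6 RPKM in normal libraries, and 23.5% of its exon length overlaps other genes. Bsg, the chaperone of MCT1 and MCT4, rose 2.44-fold, to 110 and 116 RPKM in AML libraries against 42.0, 43.0 and 53.8 RPKM in normal libraries (adjusted p = 0.0083). Emb, the preferred chaperone of MCT2, fell 18.7-fold, to 7.4 and 8.5 RPKM in AML libraries against 149, 167 and 129 RPKM in normal libraries (log2 fold change -4.06, SE 0.23, adjusted p = 0.00026). Slc16a7 was kept through the normal libraries alone, so its direction was set by the level rule. Slc16a1, Slc16a3 and Slc16a6 were named after their values were seen. Leaving out a library ended the calls of Slc16a1, Slc16a3 and Bsg (normal library 2 or either AML library, adjusted p up to 0.20, 0.22 and 0.073) and Slc16a7 (AML library 2, 0.052), and Slc16a1 was also not called with a pseudocount of 0.1, with upper quartile scaling or with no filter on low values (up to 0.084). Emb kept its call whichever library was left out, although 14.8% of its exon length overlaps Gm17509.

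Of 4 nucleoside and nucleobase carriers, 2 rose and 2 were not called, where 19.3% of all tested genes were called higher. Slc43a3, a carrier of purine nucleobases (chromosome 2, 84776736 to 84798666), had 106 and 124 RPKM in AML libraries and 27.5, 29.2 and 22.6 RPKM in normal libraries, a 4.35-fold rise (log2 fold change 2.08, SE 0.24, adjusted p = 0.0014). Slc28a2, a sodium-coupled carrier of purine nucleosides named after its values were seen, rose 2.22-fold (23.7 and 22.2 RPKM in AML libraries, 10.4, 10.1 and 10.6 RPKM in normal libraries, adjusted p = 0.0091). The equilibrative carriers Slc29a1 and Slc29a3, named after their values were seen, were not called, with log2 fold changes of 0.62 and -1.24. Both AML libraries lay above every normal library for Slc29a1 and below for Slc29a3 (limma adjusted p = 0.099 and 0.056). Slc29a3 was called lower with upper quartile scaling, with quantile normalization and without normal library 3, and in no other fit. Slc17a9, which loads nucleotides such as ATP into vesicles, rose 3.39-fold, to 86.0 and 134 RPKM in AML libraries against 21.9, 26.8 and 48.8 RPKM in normal libraries (adjusted p = 0.015), and was named after its values were seen. Slc17a9 and Slc17a3 were placed in another class, that of vesicles and lysosomes. Slc17a3, a urate and organic anion carrier known from kidney, was the leading gene of that class. Slc17a3 was at 3.83 and 4.03 RPKM in AML libraries and 0.03, 0.01 and 0.00 RPKM in normal libraries (log2 fold change 2.28, SE 0.17, adjusted p = 0.00037). It was kept through the AML libraries alone and was near 0 in every normal library.

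The largest rise and fall of all carriers lay in small classes. Slc26a8, an anion exchanger known from testis (chromosome 17, 28774728 to 28826932), had 13.8 and 20.4 RPKM in AML libraries and 0.88, 1.11 and 1.72 RPKM in normal libraries, a 13.8-fold rise (log2 fold change 3.01, SE 0.27, adjusted p = 0.00065). Slc15a3, which exports histidine and small peptides from lysosomes (chromosome 19, 10914217 to 10933852), had 1.4 and 1.5 RPKM in AML libraries and 28.1, 31.5 and 20 RPKM in normal libraries, an 18.3-fold fall (log2 fold change -3.47, SE 0.26, adjusted p = 0.00038). Of its exon length 28.1% overlaps Tmem132a on the other strand. The summed monocyte and macrophage genes moved in the same direction, at 81.8 and 95.6 RPKM in AML libraries and 893 to 1172 RPKM in normal libraries, and their part in the fall of Slc15a3 was not tested. Slc15a4, its relative of the same organelle, was named after its values were seen, with 9.69 and 9.64 RPKM in AML libraries and 10.1, 10.6 and 8.18 RPKM in normal libraries (log2 fold change 0.01, SE 0.22, adjusted p = 0.97).

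**Figure D5:**
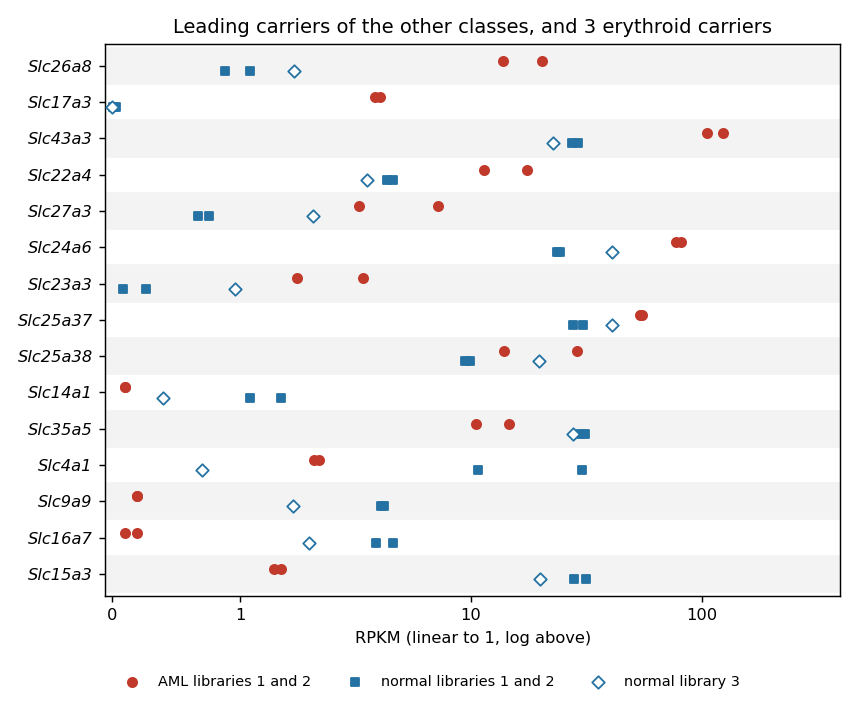
RPKM in each library (x axis, linear up to 1 and logarithmic above) of the leading carrier of each smaller class and of 3 carriers typical of erythroid cells, ordered by log2 fold change. Red circles are AML libraries, blue squares normal libraries 1 and 2 and open diamonds normal library 3. Slc26a8 heads the plot with circles at 13.8 and 20.4 RPKM, Slc15a3 ends it with circles at 1.4 and 1.5 RPKM, and Slc4a1 shows the widest spread among normal libraries, from 0.7 to 30.4 RPKM.

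Other classes had at most 1 leading gene by the rule used here. Slc24a6, the mitochondrial exchanger of sodium for calcium, rose 2.68-fold, to 81.5 and 77.2 RPKM in AML libraries against 23.7, 24.3 and 40.9 RPKM in normal libraries (adjusted p = 0.013). Slc22a4, which carries the antioxidant ergothioneine, rose 3.47-fold, to 11.4 and 17.5 RPKM in AML libraries against 4.58, 4.32 and 3.56 RPKM in normal libraries (adjusted p = 0.006). Slc27a3, a fatty acid activating enzyme, rose to 3.27 and 7.24 RPKM in AML libraries against 0.76, 0.67 and 2.07 RPKM in normal libraries (adjusted p = 0.025). Both AML libraries were above every normal library in these 3 genes, as in 34.8% of all tested genes. Slc23a3, an orphan member of the ascorbate carrier family, rose to 1.76 and 3.41 RPKM in AML libraries against 0.09, 0.27 and 0.96 RPKM in normal libraries (adjusted p = 0.021), and was kept through the AML libraries alone. Slc9a9, a sodium-proton exchanger of endosomes, fell to 0.2 RPKM in both AML libraries against 4.2, 4.1 and 1.7 RPKM in normal libraries (log2 fold change -1.79, SE 0.32, adjusted p = 0.0075), and was kept through the normal libraries alone. Slc35a5, of the nucleotide sugar family, fell 2.35-fold, to 14.6 and 10.5 RPKM in AML libraries against 29.6, 31.3 and 27.6 RPKM in normal libraries (adjusted p = 0.011). These genes were lower in both AML libraries than in every normal library, as were 22.1% of all tested genes. Slc14a1, a urea carrier and alone in its class, was at 0.1 RPKM in both AML libraries and at 1.5, 1.1 and 0.4 RPKM in normal libraries and was not called (adjusted p = 0.053). Other called carriers, named after their values were seen, included Slc20a1, Slc4a2, Slc5a6 and Slc26a10 among the higher genes, with log2 fold changes of 0.88, 0.92, 0.63 and 1.01, and Slc27a4, Slc8a1, Slc26a11 and Slc22a20 among the lower genes, with log2 fold changes of -1.05, -1.02, -1.31 and -1.03. Slc5a6 and Slc26a10 were kept through the AML libraries alone, and Slc8a1 and Slc26a11 through the normal libraries alone. Of the exon length of Slc26a10, 19.5% overlaps B4galnt1. Spns1, a lysosomal exporter of lysophospholipids on the partner list, rose 2.89-fold, to 13 and 20.9 RPKM in AML libraries against 3.95, 4.70 and 8.91 RPKM in normal libraries (adjusted p = 0.027). With it, 5 of 28 tested partner genes were higher, 5 lower and 18 not called, against 19.3% higher and 11.8% lower over all tested genes. Leaving out a library ended the calls of Slc27a3 (AML library 2 or normal library 1 or 2, adjusted p up to 0.19), Slc24a6 and Slc28a2 (normal library 2 or either AML library, 0.088 and 0.069), Slc17a9 and Slc35a5 (normal library 2 or AML library 2, 0.13 and 0.096), Slc9a9 (either AML library, 0.073), Slc23a3 (normal library 1 or 2, 0.069), Slc22a4 (AML library 2, 0.0595) and Spns1 (each but normal library 3, 0.19). Slc20a1, Slc4a2, Slc5a6, Slc26a10, Slc27a4, Slc8a1, Slc26a11 and Slc22a20 each lost their call without at least one library. Slc17a3 and Slc23a3 fell under the level without either AML library. Slc43a3, Slc26a8 and Slc15a3 kept theirs whichever library was left out.

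Among carriers that rose and among those that fell, normal library 3 was in most cases the normal library nearest to the AML libraries. The same count was not made over all tested genes. Among the 26 lower genes it had the lowest normal value in 16 and the highest in 7, and among the 31 higher genes it had the highest normal value in 18 and the lowest in 12. Slc36a4, a lysosomal amino acid carrier named after its values were seen, was not called (adjusted p = 0.065): it had 0.4 and 0.2 RPKM in AML libraries and 5.4, 4.2 and 0.7 RPKM in normal libraries, with the last value in normal library 3. The low eosinophil and erythroid sums of that library, given above, stand beside this, and their part was not tested.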

How the data were processed

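Sorted myeloid cells of BALB/c mice were profiled by RNA sequencing in 2 AML and 3 normal libraries, made from total RNA with a kit that does not mark strand. The values are those the authors deposited in 1 table, as RPKM on mm9, a build given per the submitters' processing notes. The unit is named by no label and was inferred: values times exon length sum to between 1052562 and 1118076 per library. No aligner is named in the sources at hand. Whole reads could not be recovered (58.6% to 87.1% of low values were whole multiples of 1 read at the best depth), so depth is unknown and no counting interval is given. In the deposited table all 31 higher carriers have 2 decimals and all 26 lower ones 1, so values of 0.1 RPKM are coarse.

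From the deposited RPKM, log2(RPKM + 1) was compared with limma 3.58.1 in R 4.3.3 (variance trend, robust, two-sided) over the 10166 genes that reached 1 RPKM in 2 or more libraries, and p-values were adjusted by Benjamini-Hochberg over all of them, with a threshold of 0.05. The script was tested on simulated data. Folds are ratios of mean RPKM; log2 fold changes are on the log2(RPKM + 1) scale, which understates changes of low genes. SE is that of limma. Libraries were numbered in accession order, and 0 columns belonged to another sample. The carriers, classes and lists were chosen with earlier results of these data known; Slc4a1ap was set apart after the table was seen. Named genes are, in the sugar, amino acid, Slc25 and metal classes, the 4 called carriers with the largest rise, the 4 with the largest fall and the one of highest mean, and in each other class the called one with the largest change, with 3 erythroid carriers and every called partner gene. Coordinates are from GENCODE M1 on mm9, and promoters from RefSeq on GRCm38.p6 (110 of 143 carriers matched). Alternatives were another pseudocount (0.1), no filter, a filter of 5 RPKM, upper quartile scaling, quantile normalization, no variance trend, rounding to 1 decimal and leaving out each library. The values of 1 called carrier and 1 partner gene are not reported here, although the counts include them.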

Additional observations from a re-analysis of the deposited data

How the results depend on the processing

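No called carrier changed sign in any fit. The groups of all 57 did not overlap, so leaving out a library or changing the pseudocount or filter could not turn a sign. Only upper quartile scaling and quantile normalization could have done so. Of the 57 called carriers, 10 were called in every fit without 1 library that tested them and 47 lost their call in at least 1 such fit, while 40 were called under every other alternative that tested them. Only 7 of the 10 were also tested in every fit, since Slc17a3, Slc25a26 and Slc39a8 lay under the level with 1 AML library. The calls of Slc2a9, Slc16a1, Slc25a3, Slc38a10 and Slc4a2 ended with upper quartile scaling, and those of Slc25a3, Slc38a10, Slc4a2, Slc20a1 and Slc39a13 with quantile normalization. Without a filter 16 called carriers lost their call, Slc16a3 among them. With a filter of 5 RPKM there were 19 higher and 12 lower carriers, 2 lower sugar carriers, 3 lower amino acid carriers, 2 higher Slc25 genes, and 2 higher and 0 lower metal carriers (limma, 1 lower at an unadjusted p under 0.05), where 79 of the 147 rows were tested. With no filter, 3 amino acid carriers were higher and 3 lower.

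Without 1 library at a time, between 326 and 2757 of all genes were higher and between 348 and 2142 lower, and 6 to 44 carriers were higher and 3 to 40 lower. Sugar carriers numbered 1 to 3 higher and 1 to 5 lower, amino acid carriers 1 to 5 higher and 0 to 9 lower, Slc25 genes 1 to 9 higher and 1 to 4 lower, and metal carriers 0 to 5 higher and 0 to 4 lower. At the counts of 0 limma gave an unadjusted p under 0.05 for 5 lower amino acid carriers (without AML library 2), for 3 higher metal carriers (without AML library 1) and for 3, 4 and 3 lower metal carriers (without normal library 2, AML library 1 and AML library 2). With 1 AML library, that library is assumed to vary like the normal ones. The cause of these changes was not tested beyond the fewer samples or genes.

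Slc31a2, which was not called, turned sign with upper quartile scaling (-0.0088), quantile normalization (-0.0244) and without normal library 1, where leaving out a library gave -0.0545 to 0.2972. No paired analysis was possible because the replicate numbers were given in accession order and pair no libraries. Depth is unknown, so low values cannot be weighed by their reads.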
